A study of Homo sapiens with 6 samples.

Results

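Nucleolar ribosome biogenesis factors are the proteins that transcribe ribosomal RNA and then cut, modify, fold and assemble it into ribosomal subunits. The set described here holds 54 genes, found by their symbol among the 58735 genes of the count table, where each symbol matched 1 row. All 54 passed the filter on low counts and stand among the 14960 genes tested. RNA came from Panc-1, an epithelial line of a human pancreatic cancer labelled as wild type, which had shared a culture with cancer-associated fibroblasts (CAF) for 72 h. In 3 libraries the partner was CAF (headed CAF-NC in the table, where NC is not explained) and in 3 it was CAF overexpressing PAI-1, a secreted inhibitor of plasminogen activators; these are called CAF and PAI-1 libraries below. The labels call the libraries of each group biological replicates. The sources used here do not state how the 2 cell types were kept apart or whether these replicates were separate cultures. The p-values then reflect only the variation among the 6 libraries.

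Ribosome production begins in the nucleolus, where RNA polymerase I copies the ribosomal DNA into 1 long precursor. Small nucleolar ribonucleoproteins (snoRNPs) modify it, the small subunit processome folds and cuts the part that becomes the 40S subunit, and further factors mature the 60S subunit. In tumour cells the pathway follows growth factor signalling and the demand for protein synthesis, and many of its genes are transcribed together.

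Library totals ranged from 13628508 to 16006880 counts. Mitochondrial genes took up 5.53%, 5.81% and 5.92% of the counts in CAF replicates 1, 2 and 3 and 5.12%, 3.78% and 4.76% in PAI-1 replicates 1, 2 and 3, so that the groups do not overlap, and the part of this difference in the results was not tested. PAI-1 replicate 2 stood apart from its group, with a chi-square per degree of freedom of 9.51 to replicate 1 and 6.63 to replicate 3, where that between replicates 1 and 3 was 3.39. Keratins 8, 18 and 19 were abundant, while EPCAM stayed under 10 CPM (counts scaled to the library size) and CDH1 under 2 CPM, and all 6 squamous markers were under 1 CPM in every library. Among 12 markers of fibroblasts, 9 had less than 1 CPM in each library. PDGFRA, FAP and POSTN had no count in any PAI-1 library, and DCN had none in any CAF library. The summed level of the 12 was 11.6 to 14.7 CPM in the CAF libraries and 16.1 to 18.2 CPM in the PAI-1 libraries, led by COL3A1 and LOX. RNA of CAF at that level was not separated from that of Panc-1, and its part in the results was not tested.

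Most nucleolar factors were higher with CAF overexpressing PAI-1. Levels below are CPM after TMM scaling, which brings libraries to a common scale. Of the 54 genes 44 rose, none fell and 10 were not called (edgeR quasi-likelihood test, Benjamini-Hochberg adjusted p under 0.05 over all genes tested). Among all genes tested 32.2% changed, with 17.2% higher and 15% lower, so that 81.5% of the nucleolar factors stand against 17.2%. No factor was lower at an unadjusted p under 0.05 either, and none fell with DESeq2 or limma-voom, which called 43 and 44 higher. Over all genes tested 3186 were higher and 2992 lower at that unadjusted p. DESeq2 called 2246 of them higher and 1921 lower, and limma-voom 2567 and 2212. The log2 fold changes of the 54 genes had a median of 0.44 (1.35-fold), against -0.0015 over all genes tested. In bulk RNA, more transcript per cell and more cells with the transcript cannot be told apart.

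The changes were moderate in size and close from library to library. The 44 genes that rose had fold changes from 1.12 for UBTF to 1.74 for RRP12, and 11 of them reached 1.5-fold, which 3.88% of all genes tested did. For the same 44 genes every PAI-1 library lay above every CAF library, as for 22.3% of all genes tested. The groups overlapped for the other 10 genes, and no factor had every PAI-1 library below every CAF library, as 21.1% of all genes had. Scaling by library size alone moved the median of all genes to -0.07 and their calls to 1839 higher and 3182 lower, where the main test gave 2571 and 2239. With that scaling 41 factors rose and none fell.

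**Figure D1:**
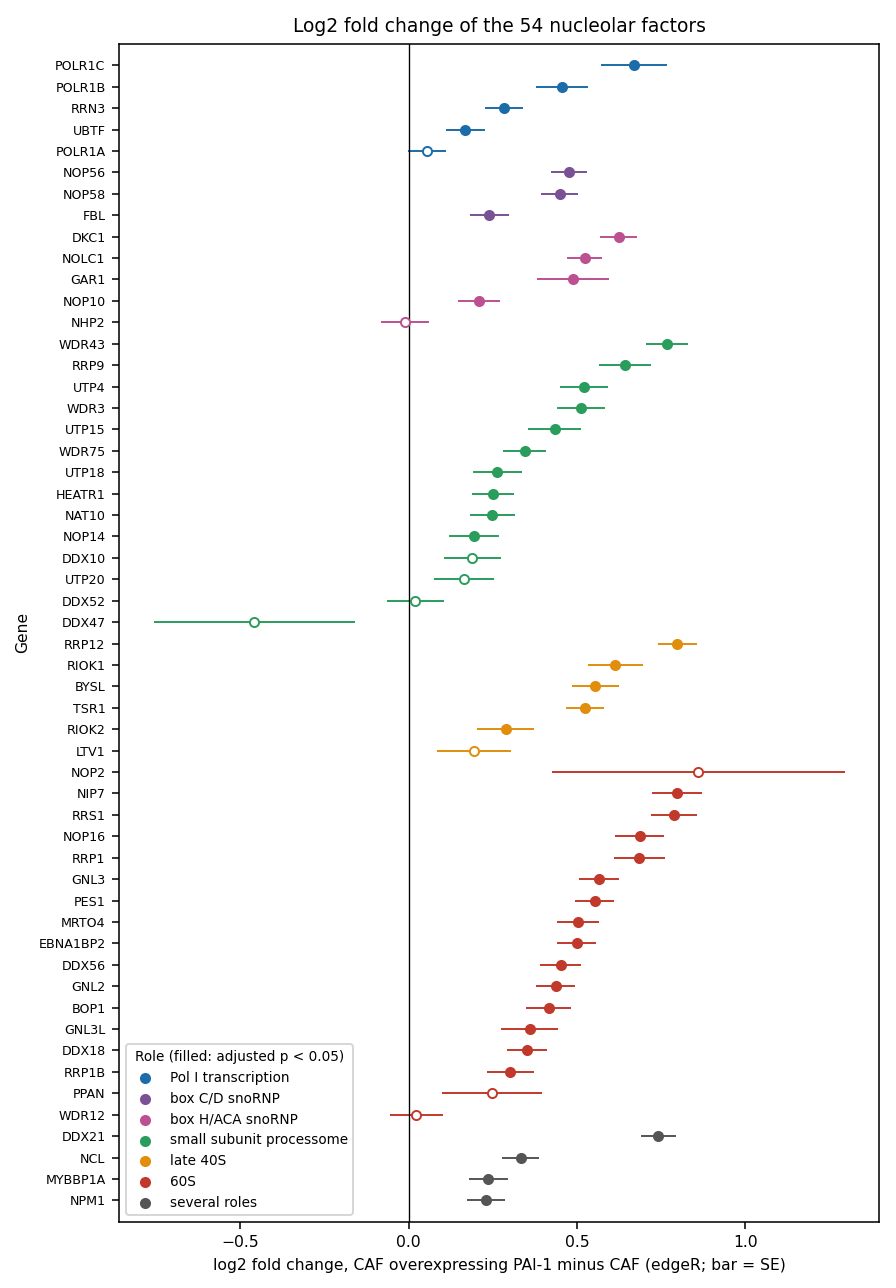
Log2 fold change of each of the 54 genes (x axis), CAF overexpressing PAI-1 minus CAF, with the standard error as a bar and genes grouped by role on the y axis. The 44 filled points passed an adjusted p of 0.05 and all lie right of 0; the open points did not pass, and DDX47 and NOP2, at under 3 CPM, have the widest bars.

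Each PAI-1 library showed the rise. Set against the mean of the CAF libraries, the median log2 ratio over the 54 genes was 0.43 in PAI-1 replicate 1, 0.43 in replicate 2 and 0.42 in replicate 3, and 51, 52 and 48 genes were above that mean. The CAF libraries had medians from -0.0012 to 0.0091, near 0 because they were set against their own mean. The PAI-1 libraries therefore differ little in this median, although replicate 2 stood apart over all genes. Without PAI-1 replicate 2, 44 factors rose and 43 of them were the same, with UBTF no longer called and UTP20 called. Over all genes tested 2446 rose and 2227 fell in that run. The 54 genes together took up 0.829% to 0.839% of the counts in CAF libraries and 0.989%, 1.08% and 0.995% in PAI-1 replicates 1, 2 and 3.

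**Figure D2:**
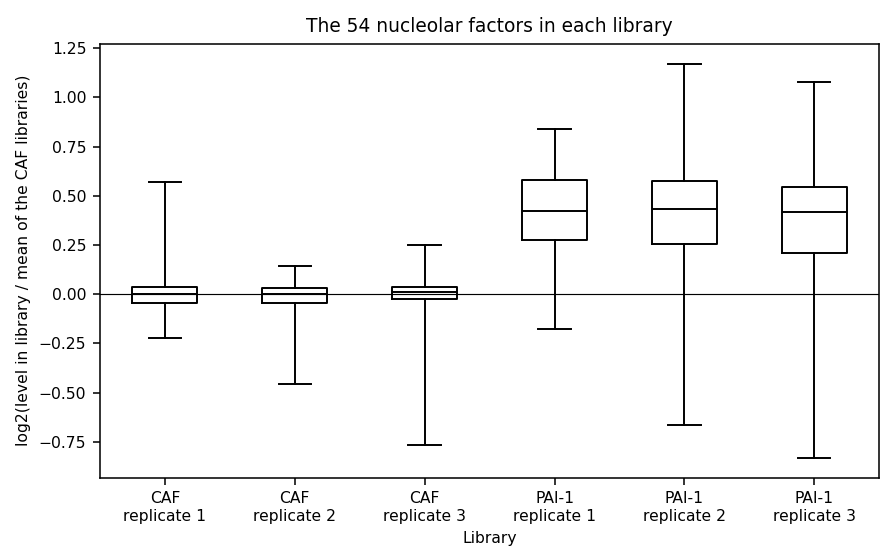
Log2 ratio of each gene's level to its mean in the CAF libraries (y axis), over the 54 genes, in each of the 6 libraries (x axis); the line is the median, the box the quartiles and the whiskers the lowest and highest gene. The 3 PAI-1 medians lie between 0.42 and 0.43, and the CAF medians lie near 0, as these libraries were set against their own mean.

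RNA polymerase I genes differed among themselves. Of 5 genes of the polymerase and its initiation factors 4 rose, with a median log2 fold change of 0.28. POLR1C, a subunit shared by polymerases I and III, was at 21.2, 23.8 and 29.3 CPM in CAF replicates 1, 2 and 3 and at 37.0, 43.0 and 37.6 CPM in PAI-1 replicates 1, 2 and 3. All PAI-1 values lie above the CAF values, which are themselves spread widely, and the log2 fold change was 0.67 (SE 0.098, edgeR adjusted p = 1.85e-06). POLR1B, the second largest subunit of polymerase I, was at 45.9, 44.9 and 46.8 CPM with CAF and 69.1, 55.1 and 64.2 CPM with PAI-1, and its log2 fold change was 0.45 (SE 0.076, adjusted p = 1.56e-05). RRN3, the factor that makes the polymerase competent to initiate, rose by 0.28, and UBTF, an HMG box protein that binds the ribosomal DNA, by 0.17 (adjusted p = 0.0235), a call that was lost without CAF replicate 1, 2 or 3, without PAI-1 replicate 1 or 2, and with library size alone (0.10). POLR1A, which encodes the largest subunit, was at 192, 178 and 181 CPM with CAF and 204, 185 and 183 CPM with PAI-1, so that the groups overlap (log2 fold change 0.05, SE 0.057, adjusted p = 0.502).

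Box C/D snoRNPs guide methylation of ribosomal RNA, and all 3 of their core genes listed rose. NOP56, a scaffold protein, was at 230.2, 224 and 216 CPM with CAF and 318, 302 and 313 CPM with PAI-1 (log2 fold change 0.48, SE 0.053, adjusted p = 9.15e-09). Its partner NOP58 was at 137, 142 and 142 CPM with CAF and 189, 194 and 190.1 CPM with PAI-1 (0.45, SE 0.054, adjusted p = 5.18e-08). Both genes thus showed tight groups with a clear gap. FBL, the methyltransferase of the particle, rose by 0.24 (SE 0.059, adjusted p = 0.00175), from 2102 ± 59.7 to 2481 ± 227 CPM (SD, n = 3 each), with its highest value, 2737 CPM, in PAI-1 replicate 2. Without that library the log2 fold change of FBL was 0.16 (adjusted p = 0.00763).

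Box H/ACA snoRNPs convert uridines of ribosomal RNA to pseudouridine, and 4 of 5 genes rose. DKC1, the pseudouridine synthase, was at 212, 219 and 209.5 CPM with CAF and 324, 348 and 315 CPM with PAI-1 (log2 fold change 0.62, SE 0.054, adjusted p = 3.98e-11). NOLC1, a phosphoprotein that escorts snoRNPs, was at 201, 205 and 201 CPM with CAF and 298, 287 and 286 CPM with PAI-1 (0.52, SE 0.053, adjusted p = 1.01e-09). The core proteins of this particle had unequal values. GAR1 rose by 0.49 (SE 0.11) and NOP10 by 0.21 (SE 0.064, adjusted p = 0.0109), the latter not called with library size alone or without CAF replicate 2. NHP2, the remaining core gene, was at 69.1, 67.9 and 68.3 CPM with CAF and 60.5, 75.5 and 67.9 CPM with PAI-1, with PAI-1 values on both sides of the CAF values (-0.01, SE 0.072, adjusted p = 0.929). NHP2 shares 414 exon bases with RMND5B on the opposite strand, which holds 85.3% as many counts.

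**Figure D3:**
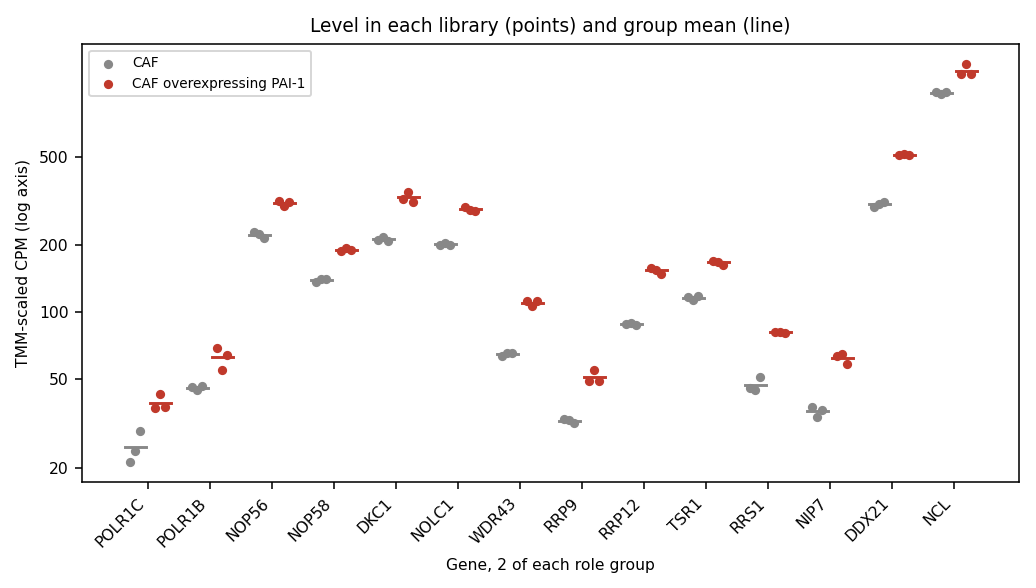
TMM-scaled CPM on a log axis (y axis) of 14 genes, the pair of smallest p in each of the 7 role groups (x axis); points are the 3 libraries of each group and lines their means. For all 14 genes the 3 PAI-1 points lie above the 3 CAF points, and POLR1C in CAF libraries has the widest spread for its level.

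The small subunit processome is the large particle that assembles on the precursor of 18S ribosomal RNA. Of 14 genes 10 rose, with a median log2 fold change of 0.26. WDR43, of the subcomplex that binds first and also acts in polymerase I transcription, was at 63.9, 65.6 and 65.5 CPM with CAF and 112, 107 and 112 CPM with PAI-1 (0.77, SE 0.061, adjusted p = 5.74e-12). RRP9, a protein of the U3 snoRNP, was at 33.3, 33.0 and 31.6 CPM with CAF and 48.9, 55.1 and 48.9 CPM with PAI-1 (0.64, SE 0.077, adjusted p = 4.25e-08). Neither gene's groups came near each other.

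Among the other genes of WDR43's subcomplex, UTP4 rose by 0.52, UTP15 by 0.43, WDR75 by 0.34 and HEATR1 by 0.25 on the log2 scale. WDR3 and UTP18, of a second subcomplex, rose by 0.51 and 0.26. NAT10, which acetylates 18S ribosomal RNA, rose by 0.25, and NOP14 by 0.19 (adjusted p = 0.0447), a call lost with DESeq2, with library size alone and without CAF replicate 1, CAF replicate 3, PAI-1 replicate 1 or PAI-1 replicate 3. With library size alone and without CAF replicate 3 its value was 0.13 each. UTP20, a large scaffold protein, was at 73.2, 52.9 and 60.3 CPM in PAI-1 replicates 1, 2 and 3 and 51.5 to 57.8 CPM with CAF (0.16, SE 0.089, adjusted p = 0.177). The DEAD-box helicase genes DDX10, DDX52 and DDX47 did not pass, with log2 fold changes of 0.19, 0.02 and -0.46.

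Factors of late 40S maturation act from nucleolus to cytoplasm, and 5 of 6 of their genes rose, with a median log2 fold change of 0.54. RRP12, which serves in export of both subunits, was at 88.6, 89.7 and 88.0 CPM with CAF and 159, 155 and 149 CPM with PAI-1 (0.80, SE 0.058, adjusted p = 4.89e-13). TSR1, a GTPase-like factor, was at 118, 114 and 118 CPM with CAF and 171, 169 and 163 CPM with PAI-1 (0.52, SE 0.056, adjusted p = 3.58e-09). In both genes the gap between the groups is wider than either group's range. RIOK1 and RIOK2, atypical kinases of the last steps, rose by 0.61 and 0.29, the second not without CAF replicate 1 (adjusted p = 0.0825), and BYSL rose by 0.55. LTV1, an adaptor released during 40S maturation, was at 28.0, 33.2 and 22.04 CPM in PAI-1 replicates 1, 2 and 3 and 22.9 to 25.6 CPM with CAF (0.19, SE 0.11, adjusted p = 0.188), and it was called without PAI-1 replicate 3 (0.34, adjusted p = 0.0159).

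The largest role group is that of 60S assembly, where 14 of 17 genes rose, with a median log2 fold change of 0.50. RRS1, which recruits the 5S ribonucleoprotein, was at 45.8, 44.7 and 51.3 CPM with CAF and 81.9, 81.5 and 81.0 CPM with PAI-1 (0.79, SE 0.069, adjusted p = 4.28e-11). NIP7, a factor of 60S assembly and rRNA processing, was at 37.4, 33.8 and 36.3 CPM with CAF and 63.4, 65.1 and 58.4 CPM with PAI-1 (0.80, SE 0.074, adjusted p = 1.78e-10). Every PAI-1 value of both genes stood well above the CAF values. NOP16 rose by 0.69, RRP1 by 0.69, MRTO4 by 0.50, EBNA1BP2 by 0.50, DDX56 by 0.45 and DDX18 by 0.35 on the log2 scale.

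Related genes within this group can be set side by side. The nucleolar GTPase genes GNL3, GNL2 and GNL3L rose by 0.57 (SE 0.060), 0.44 (SE 0.058) and 0.36 (SE 0.085), and the paralogs RRP1 and RRP1B by 0.69 (SE 0.075) and 0.30 (SE 0.070). PES1, BOP1 and WDR12 encode the trimeric PeBoW complex that acts in 28S and 5.8S maturation. PES1 rose by 0.55 (SE 0.059) and BOP1 by 0.42 (SE 0.067), while WDR12 was at 53.8, 50.5 and 64.0 CPM with CAF and 55.3, 60.4 and 55.0 CPM with PAI-1 (0.02, SE 0.078, adjusted p = 0.854). WDR12 values of the 2 groups overlap throughout. Differences between genes of a complex were not tested.

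Factors with several roles include the most abundant nucleolar proteins, and all 4 of their genes rose. DDX21, an RNA helicase that also acts in polymerase I and II transcription, was at 298, 308 and 313 CPM with CAF and 511, 515 and 512 CPM with PAI-1 (0.74, SE 0.052, adjusted p = 1.91e-13). NCL, encoding nucleolin, was at 978, 958 and 978 CPM with CAF and 1177, 1313 and 1179 CPM with PAI-1 (0.33, SE 0.054, adjusted p = 1.03e-05). The 3 PAI-1 values of DDX21 are nearly equal, whereas that of NCL in PAI-1 replicate 2 lies above the others. NPM1, encoding nucleophosmin, rose by 0.23 from 1124 ± 42.8 to 1318 ± 107 CPM, also highest in PAI-1 replicate 2, at 1437 CPM, and MYBBP1A rose by 0.24.

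The abundant factors shape the summed level. FBL, NPM1 and NCL, the 3 genes with a mean over 500 CPM, made up 50.9% to 51.8% of the set's summed CPM in CAF libraries and 46.2%, 50.1% and 47.6% in PAI-1 replicates 1, 2 and 3. Their log2 fold changes lay between 0.23 and 0.33. The other 51 genes summed to 3987 ± 8.33 CPM with CAF and 5437 ± 77.1 CPM with PAI-1 (SD, n = 3 each), a ratio of 1.36. Per kilobase of exon, FBL had the highest level with CAF, at 967 CPM per kb, followed by NPM1 at 294, NCL at 140.2, NOP10 at 128 and DDX21 at 61.1, where the median over the 54 genes was 14.4. This order of 5 was the same with PAI-1. Across the 54 genes the log2 fold change had a Spearman rho of 0.0010 with mean CPM and -0.19 with exon length, given as a description of genes that share libraries.

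The 3 genes with the lowest levels each share exon bases with another gene on the same strand, as do other factors at higher levels. NOP2, the methyltransferase of 28S ribosomal RNA, had 15, 9 and 5 counts in the CAF libraries and 11, 19 and 20 counts in the PAI-1 libraries, and its fitted log2 fold change of 0.86 had an SE of 0.43 (adjusted p = 0.133). It shares 2550 exon bases with AC006064.6, a gene model listed at 0 counts in all libraries. DDX47 had 43, 28 and 40 counts with CAF and 35, 21 and 21 with PAI-1, and its log2 fold change was -0.46 (SE 0.30, adjusted p = 0.257). It shares 1841 exon bases with APOLD1, which held 446% as many counts and fell, with a log2 fold change of -1.63 (adjusted p = 1.79e-09), and the part of APOLD1 reads in the DDX47 value was not tested. PPAN, a 60S factor at 7.13 ± 0.74 CPM with CAF and 8.48 ± 0.54 CPM with PAI-1 (0.25, adjusted p = 0.218), shares 1447 exon bases with the readthrough gene PPAN-P2RY11. LTV1, at a higher level, shares 511 exon bases with AL049844.3, a gene model listed at 0 counts. The sources used here do not say how shared reads were assigned, so the levels of NOP2, DDX47, PPAN and LTV1 are uncertain.

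Opposite-strand neighbours touch more of the set. Whether counting used strand is not given, so reads of such pairs cannot be told apart where exons overlap. Of the 54 genes 14 share exon bases with an opposite-strand gene of at least 5% of their counts, and 12 of these rose, while 32 of the other 40 rose. Of the 17 neighbours concerned 3 rose, 3 fell and 11 were not called. LGALS8, which shares 2095 bases with HEATR1, fell, at -0.45, COG8, which shares 957 bases with NIP7, had 0.01, and XPO5, which shares 348 bases with POLR1C, had 0.09. Those that rose beside a member that rose were NOP14-AS1, which shares 605 bases with NOP14 and rose by 0.61 against 0.19 for NOP14, SPNS2, which shares 139 bases with MYBBP1A and rose by 0.60 against 0.24, and EMC1, which shares 14 bases with MRTO4 and rose by 0.14 against 0.50. Of the RRN3 pseudogenes RRN3P1 and RRN3P3 and the NPM1 pseudogene NPM1P27, none held more than 5.44% as many counts as the parent gene. RRN3P3 rose by 0.56 and RRN3P1 was not called, at 0.29, against 0.28 for RRN3. NPM1P27 rose by 0.41 against 0.23 for NPM1. The part of pseudogene reads in the values of the parent genes was not tested.

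A short sequence, the E-box, was found at the start of a part of the nucleolar factors. RefSeq promoter windows on GRCh38.p14, from 250 bases before to 50 after the gene start, were matched by symbol for 46 of the 54 genes. Its letters CACGTG, a palindrome recognised by basic helix-loop-helix zipper proteins, occur in the windows of 20 of the 46 genes (43.5%), against 12.6% of 10392 genes tested and 8.77% of all 27305 genes of the table. They occur in 17 of 37 genes that rose and 3 of 9 that did not. The median log2 fold change was 0.49 for the 20 genes with the letters and 0.35 for the 26 without, with ranges of 0.16 to 0.86 and -0.46 to 0.80 that overlap. A match is a description of letters and not of binding.

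The E-box sites of 8 of the 17 genes that rose, those of smallest p, are printed to show the letters and their surroundings. Each line gives 26 bases of the gene's strand, with CACGTG in capitals, and the site nearest the start was taken where 10 bases were at hand on both sides.
DDX21, chr10:68956606-68956631, plus strand: ccgggtgtccCACGTGgtccccggcg
WDR43, chr2:28894660-28894685, plus strand: cacggacgaaCACGTGgctgcagcgg
GNL3, chr3:52686028-52686053, plus strand: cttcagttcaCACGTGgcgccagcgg
PES1, chr22:30591882-30591907, minus strand: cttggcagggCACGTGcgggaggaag
EBNA1BP2, chr1:43172792-43172817, minus strand: tattgttggcCACGTGggatcgaaga
RRP9, chr3:51941894-51941919, minus strand: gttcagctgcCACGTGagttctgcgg
MRTO4, chr1:19251809-19251834, plus strand: tcttccgccgCACGTGgattcagcgc
BYSL, chr6:41921517-41921542, plus strand: cttcagtcccCACGTGcgatccttcc

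Most of the E-box matches lie close to the start. Of 23 matches in the 20 genes 20 (87.0%) begin within 50 bases of the start on either side, as did 38.0% of the 1592 matches in windows of all genes tested. In WDR43 the match begins at base 4 of the transcript, in GNL3 at base 7, in PES1 at base 14 and in MRTO4 at base 15. In RRP9 and DDX21 it begins 5 and 31 bases before the start. The last 150 bases before the RefSeq start of DDX21 (chr10:68956497-68956646, plus strand) hold the match once, in capitals. They are shown because DDX21 had the smallest p of the set.
DDX21 start region: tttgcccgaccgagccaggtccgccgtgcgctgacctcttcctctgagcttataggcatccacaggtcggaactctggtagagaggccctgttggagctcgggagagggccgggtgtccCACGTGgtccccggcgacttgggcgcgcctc

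**Figure D4:**
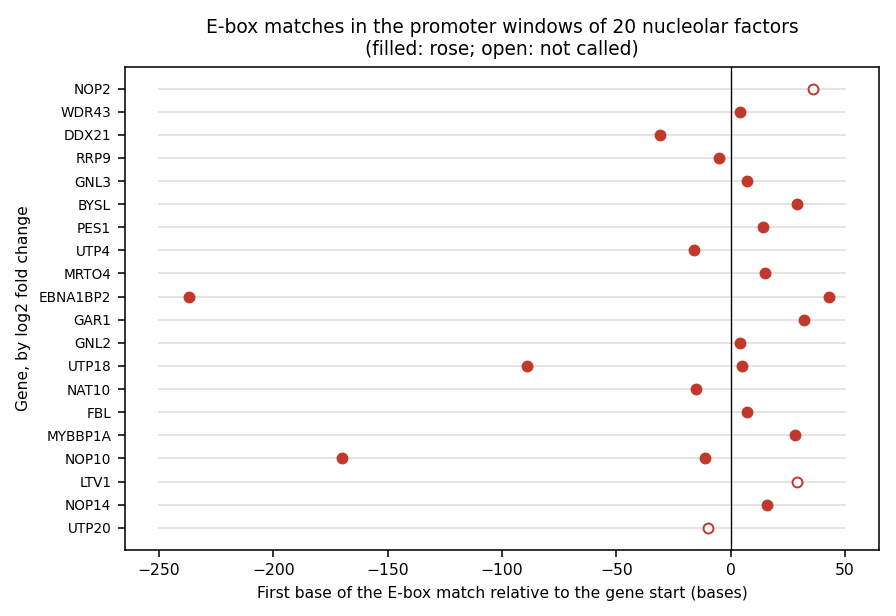
First base of each E-box match relative to the RefSeq start, in bases (x axis). The 20 nucleolar factors with a match in their 300-base windows are ordered by log2 fold change (y axis). Of the 23 matches 20 lie within 50 bases of the start; open points are NOP2, LTV1 and UTP20, which were not called.

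A further 3 motifs were searched on both strands in the same windows, and none of them can contain or lie within the E-box letters. The ETS motif CCGGAAG occurs for 21 of the 46 genes (45.7%, against 22.2% of genes tested). The CCAAT box occurs for 45.7% of the 46 genes and 42.6% of genes tested. The EGR1 motif GCGTGGGCG occurs for none of the 46 and for 1.65% of genes tested, and no match says only that these letters are not in the windows.

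The rise was not limited to the 54 genes. From a list of 95 further genes of ribosome biogenesis 65 (68.4%) rose and none fell, where 17.2% of all genes tested rose. At an unadjusted p under 0.05, 72 were higher and none lower (edgeR), against 3186 and 2992 of all 14960 genes tested. DESeq2 called 58 of the 95 higher and limma-voom 64, with none lower. The median log2 fold change was 0.27. GTPBP4, a nucleolar GTPase of 60S assembly, rose by 0.65 (SE 0.056, adjusted p = 4.16e-11), NIFK, which binds the proliferation antigen Ki-67, by 0.73 and UTP3, a processome protein, by 0.81 on the log2 scale. RUVBL2, a helicase-like ATPase of snoRNP assembly, and TAF1B, of the polymerase I selectivity factor, did not pass, at -0.0012 and 0.0017, and were chosen after their values were seen. The E-box letters occur for 22 of the 81 of these genes with a window (27.2%).

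Machinery that trims RNA, or makes the 5S and transfer RNAs, had shares nearer to the background of 17.2% higher. Of 16 genes of the RNA exosome and its partners 3 (18.8%) rose, DIS3 by 0.45, EXOSC4 by 0.63 and EXOSC2 by 0.39, and none fell. At an unadjusted p under 0.05, 4 of 16 exosome genes were higher and none lower (edgeR), where 3186 of all 14960 genes tested were higher. DESeq2 and limma-voom called 3 exosome genes higher and none lower. Of 19 genes of RNA polymerase III and its factors 5 (26.3%) rose, with POLR3E at 0.37, POLR3C at 0.30 and POLR3D at 0.35 of smallest p. MAF1, a repressor of polymerase III, and GTF3C1, a subunit of TFIIIC, fell, at -0.26 and -0.17. The medians of the 2 lists were 0.07 and 0.11, and whether the lists differ from the nucleolar factors was not tested. With library size alone 2 polymerase III genes rose. Without CAF replicate 1, 2 or 3 the genes that rose numbered 3, 3 and 2, and without PAI-1 replicate 3 they numbered 3. Those that fell numbered 1 without CAF replicate 1, CAF replicate 3 or PAI-1 replicate 3.

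**Figure D5:**
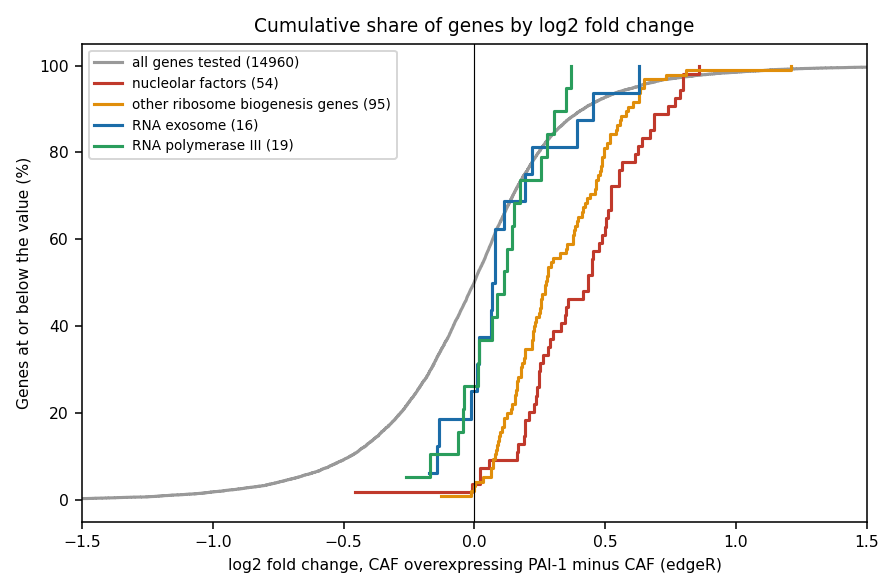
Share of genes, in percent (y axis), at or below each log2 fold change (x axis) for all 14960 genes tested, the 54 nucleolar factors and 3 lists of related genes; a few of all genes lie outside the axis range. The curve of the nucleolar factors crosses 50% near 0.44, that of the 95 other ribosome biogenesis genes near 0.27, and those of the exosome and polymerase III lists near 0.07 and 0.11.

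The positions of 6 of the genes described, chosen to identify examples and not for their rank, are given from GENCODE 29 on GRCh38. RRP12 (ENSG00000052749) lies on chromosome 10 from 97356358 to 97426076 on the minus strand, and DDX21 (ENSG00000165732) on the same chromosome from 68956128 to 68985073 on the plus strand. NIP7 (ENSG00000132603) lies on chromosome 16 from 69337996 to 69343111 and WDR43 (ENSG00000163811) on chromosome 2 from 28894643 to 28948222, both on the plus strand. DKC1 (ENSG00000130826) lies on chromosome X from 154762742 to 154777689 and NOP56 (ENSG00000101361) on chromosome 20 from 2652145 to 2658393, also on the plus strand.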

How the data were processed

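The authors deposited 1 table of whole-number counts per gene for 6 libraries, and no column was left aside. Poly(A) RNA was selected with oligo-dT beads, per the labels' protocols. Per the submitters' processing notes, hg19, RSEM, Bowtie2 and BWA were used; their roles and versions are not stated. The 58735 gene identifiers are those of GENCODE 29, an annotation of GRCh38, so GENCODE 29 served for names and exon lengths. The extraction text in the labels names another cell line, Cal27, while all other labels name Panc-1.

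The test on counts was that of edgeR 4.0.16 under R 4.3.3 (filterByExpr with minimum count 10 and total 15, TMM, estimateDisp, robust glmQLFit, glmQLFTest), without covariates, with positive values for higher levels in PAI-1 libraries. A gene is called, and said to have risen or fallen, at a Benjamini-Hochberg adjusted p under 0.05 over all 14960 genes tested. Levels of single genes are TMM-scaled CPM, and levels of cell type markers use the library total. SE is the unshrunken log2 fold change over the root of F. The common biological coefficient of variation was 6.06%. Replicate pairs of a group differed by more than sampling noise (chi-square per degree of freedom 2.58 to 9.51). The method was also run on simulated counts with the same biological variation for all genes, a simpler setting than these data, and no result here rests on that run.

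The genes, role groups and lists were chosen with earlier results of these data known. Values in every library are given for the 2 genes of smallest p in each role group, and of each other list the 3 called genes of smallest p in each direction are named; further genes are named to account for the set. PAI-1's own transcript is not reported here. Also tried were library size alone, RLE scaling, 2 other low-count filters, DESeq2 1.42.0, limma-voom (limma 3.58.1), no robust estimation, a replicate block, glmTreat and each library left out in turn.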

Additional observations from a re-analysis of the deposited data

How the results depend on the processing

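Of the 54 nucleolar factors 47 kept their call under each of the 14 alternatives that test for any change, if they passed its filter. Among them were 40 of the 44 that rose. The exceptions were UBTF, NOP14, NOP10 and RIOK2, which lost their call under 1 or more alternatives, and UTP20, LTV1 and DDX10, which gained it without PAI-1 replicate 2, PAI-1 replicate 3 and CAF replicate 1. Against a minimum change of 1.2-fold (glmTreat) 28 factors were called higher and none lower, where the main test gave 44. The share of all genes tested that pass this bound is not given. Leaving out each library in turn gave 42 to 44 factors higher and none lower. Over all genes tested the same runs gave 2124 to 2446 higher and 1818 to 2227 lower. Genes that were not called could change sign. NHP2 went from -0.01 to 0.06 without PAI-1 replicate 1, and WDR12 from 0.02 to -0.04 with library size alone. RNA polymerase III genes that rose numbered 5, but 2 with library size alone and 2 to 5 with a library left out, and those that fell numbered 2, or 1 to 2 with a library left out; the cause was not tested. Without a low-count filter or with a mean of at least 1 CPM, 44 factors rose. Those runs called 2518 of 30170 and 2495 of 13855 genes tested higher.

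Correlations between the groups cannot decide whether the replicate numbers pair the samples, since each group holds 3 libraries. Deviations of same-numbered libraries correlated at 0.0023, 0.012 and 0.0063, and those of other pairs at -0.010 to 0.0047. PAI-1 replicate 1 correlated best with CAF replicate 3, and PAI-1 replicates 2 and 3 with the CAF library of the same number. With the replicate block 44 factors rose and none fell, and 2708 genes rose and 2361 fell in all, where the main test gave 2571 and 2239. Depth limits NOP2, DDX47 and PPAN, whose standard errors were 0.43, 0.30 and 0.15, against 0.052 for DDX21.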
